A study of Rattus norvegicus with 6 samples.

Results

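The genes described here encode the cytosolic chaperone HSP90 and a set of its cochaperones: Hsp90aa1, Hsp90ab1, Ahsa1, Stip1, Fkbp4, Fkbp5, Chordc1, Cacybp, Cdc37 and Ptges3. They were taken from the count table by gene symbol, and all 10 were found among its 37209 rows. RNA was sequenced from primary BMSCs of the rat femur, the marrow's mesenchymal stem cells, which give rise to bone, cartilage and fat. Cells labelled wild type were given 3% cigarette smoke extract (CSE), usually made by drawing smoke through medium, for 6 h (3 libraries), and control cells of the same label were kept in serum-free medium for 6 h (3 libraries). Both groups were grown with serum before this step, and the labels name serum-free medium for the control only. Rat strain, sex and age are not given in the labels. Nor do they tell whether replicate libraries are separate cultures or separate rats, so the p-values reflect the spread of these libraries alone, which may be technical.

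HSP90 is a dimeric, ATP-driven chaperone that completes the folding of signalling proteins, chiefly kinases and steroid receptors, which are called its clients. Clients arrive from HSP70 through the bridging protein STIP1 or, for kinases, through CDC37, and AHSA1, p23 and the immunophilins act at later steps of the ATP cycle. Hsp90aa1 encodes the stress-inducible form and Hsp90ab1 the form that most cells make constitutively. Heat shock factor 1 (HSF1) switches on chaperone genes when unfolded proteins accumulate, through DNA elements built of alternating GAA and TTC units.

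Library totals ranged from 19433637 to 22589327 counts with CSE and from 15958621 to 18651194 in the control. Values below are counts per 1000000 counts (CPM) after TMM scaling, given as mean ± SD (n = 3), beside the log2 fold change (CSE over control) ± SE. Adjusted p-values come from edgeR's quasi-likelihood test, adjusted across 13390 tested genes. All 10 marker genes of mesenchymal stromal cells passed the filter on low counts, with summed levels of 28402 to 29730 CPM with CSE and 29626 to 32988 CPM in the control. Most of that sum was Col1a1, at 26096 ± 666 CPM with CSE and 28797 ± 1889 CPM in the control. Of the 10 markers, 3 were called higher and 4 lower by edgeR. The lower ones included Cxcl12 (84.0 ± 5.80 CPM with CSE and 378 ± 12.1 CPM in the control), and the higher ones Cd44 (874 ± 32.3 CPM with CSE and 411 ± 13.2 CPM in the control). These markers were singled out after their values were seen. All 9 macrophage and osteoclast markers also passed. Their summed levels were 1872 to 1935 CPM with CSE and 1701 to 1756 CPM in the control, with 3 of them higher and 3 lower, and the leukocyte gene Ptprc was at 49.3 ± 0.819 CPM with CSE and 61.9 ± 2.30 CPM in the control. Erythroid markers Hbb and Hba1, lymphoid markers Cd79a, Cd3e, Cd3g and Ms4a1, and granulocyte markers Elane and S100a9 were at 0 in all 6 libraries. Summed adipocyte markers were at 47.6 to 52.4 CPM with CSE and 75.5 to 87.5 CPM in the control, and endothelial markers at 3.27 to 3.71 CPM with CSE and 6.36 to 7.22 CPM in the control. The part of these other cell types in the results below was not tested, and in such bulk samples fewer cells of a type and less RNA per cell cannot be told apart.

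Both HSP90 genes and 7 of the 8 cochaperone genes rose with CSE, and Fkbp5 did not pass the test. The 9 genes that passed in either direction compare with 73.9% of all tested genes. The 9 called higher compare with 36.3% of all tested genes called higher (edgeR adjusted p under 0.05), and none of the 10 was called lower, against 37.5% of all tested genes. At least 2-fold rises were seen in 8 of the 10, with Ptges3 just past that fold at 2.01, against 10.7% of all tested genes. In 9 of the 10, every CSE library lay above every control library, against 37.2% of all tested genes. The median log2 fold change of the 10 was 1.31, beside −0.02 over all tested genes. The median of all genes shifted by −0.19 when libraries were scaled by their totals alone, and by −0.14 with upper-quartile scaling. Of all genes called, 49.2% were higher under TMM, 37.2% under total counts alone and 40.3% with upper quartiles.

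**Figure D1:**
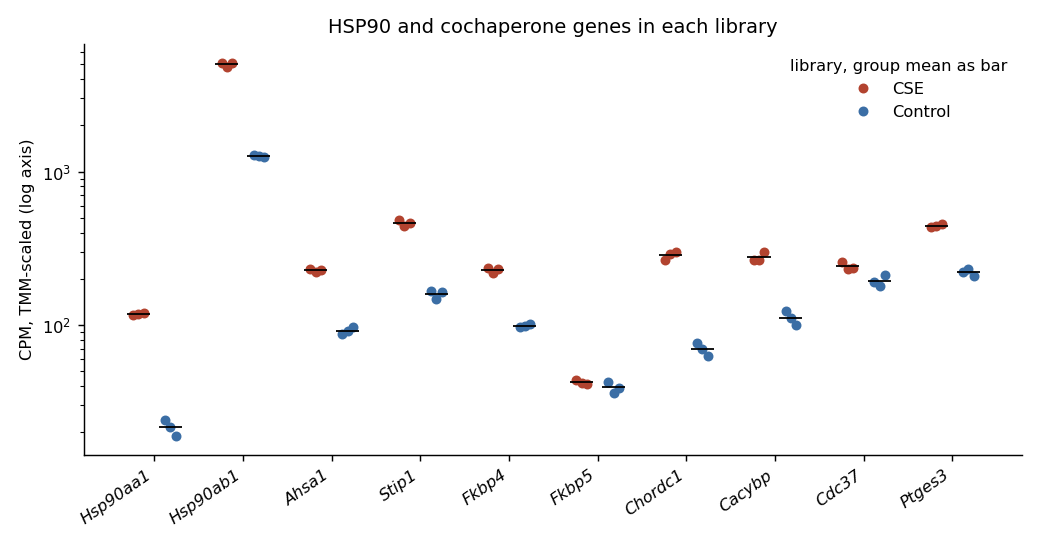
Level of each gene in each library, in CPM after TMM scaling on a log axis, with 3 CSE libraries left of 3 control libraries and the group mean as a bar. In 9 genes all CSE points lie above all control points, and in Fkbp5, which spans 36.2 to 43.7 CPM, the groups overlap.

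Hsp90ab1 had 5136, 4814 and 5119 CPM in the CSE libraries, against 1279.7, 1257 and 1249.6 CPM in the control libraries. All CSE libraries were high and the groups did not overlap, with a 3.98-fold rise (1.99 ± 0.04, edgeR adjusted p = 8.3e-17). The inducible paralog Hsp90aa1 was counted at 117, 118 and 119.8 CPM with CSE and at 24.0, 21.6 and 18.8 CPM in the control. This 5.52-fold rise (2.47 ± 0.07, edgeR adjusted p = 4.5e-15) was the highest of the 10 genes, and 97.4% of all tested genes had a lower log2 fold change. Within a library, Hsp90aa1 had 22.7, 24.5 and 23.4 counts per 1000 counts of Hsp90ab1 with CSE, against 18.8, 17.2 and 15.1 in the control. These ratios do not depend on library scaling, and their log2 difference of 0.48 ± 0.10 (SE) separated the groups at an exact permutation p = 0.1 (2-sided), the smallest that 3 libraries against 3 allow. They do not compare RNA levels of the paralogs, since counts were not divided by transcript length.

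Counts were found both in the row of Hsp90aa1 and in rows of pseudogenes named after it. Whether the pseudogene rows hold reads of the gene or transcripts of the copies was not tested. RefSeq lists 16 pseudogenes named after Hsp90aa1, of which 15 have a row in the count table (matched by gene identifier) and 10 have a count. The row of Hsp90aa1-ps17, a transcribed pseudogene on chromosome 5, held 324 ± 8.62 CPM with CSE and 55.8 ± 4.48 CPM in the control, and had more counts than the Hsp90aa1 row in every library. Hsp90aa1-ps16, another transcribed pseudogene on chromosome 13, held 121 ± 5.28 CPM with CSE and 21.9 ± 0.463 CPM in the control. Their log2 fold changes of 2.54 ± 0.06 and 2.46 ± 0.06 lay beside the 2.47 ± 0.07 of the gene row. The gene row held 19.5% ± 0.162 of the counts of the gene and its copies in the CSE libraries, against 19.9% ± 2.06 in the control libraries. Reads of the gene and of its near-identical copies cannot be told apart in such a table, and the level of Hsp90aa1 is uncertain for that reason. With all copies summed, a setting chosen after seeing the data, Hsp90aa1 was at 607 ± 8.28 CPM with CSE and 108 ± 3.66 CPM in the control. The change was then 2.49 ± 0.05 on the log2 scale (edgeR adjusted p = 1.6e-17). Copies of Hsp90ab1 mattered less, since 11 of its 23 listed pseudogenes had a count and the gene row held at least 99.7% of the counts in every library. Summed with copies on both sides, Hsp90aa1 had 121 ± 5.53 counts per 1000 of Hsp90ab1 with CSE and 85.4 ± 2.15 in the control, and the log2 difference of 0.50 ± 0.04 (SE) was close to that of the gene rows. Of the other members, Stip1, Cacybp and Ptges3 have 1 listed pseudogene each, with at most 4 counts in any library.

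**Figure D2:**
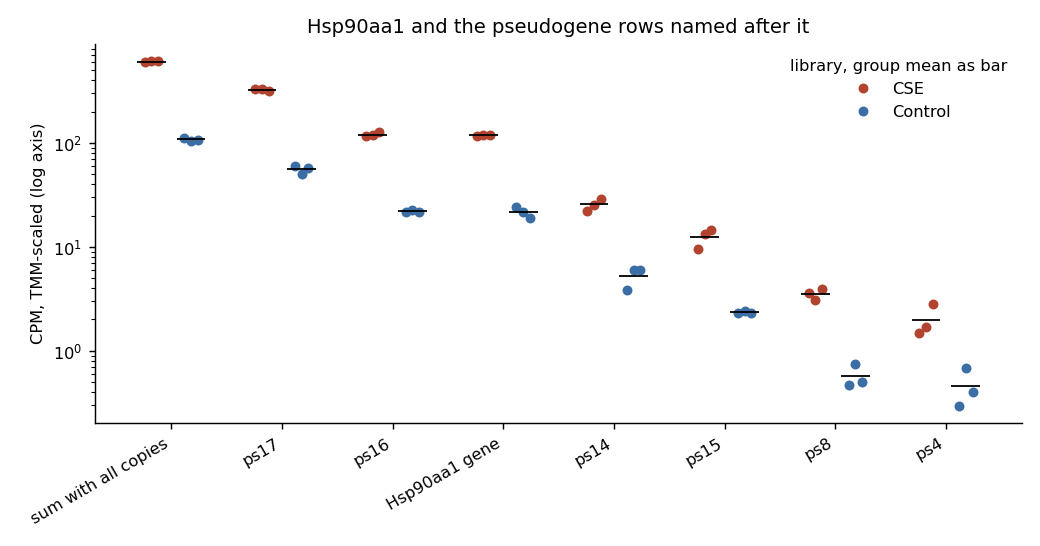
Level of the Hsp90aa1 row, of the 6 tested pseudogene rows named after it (ps, pseudogene) and of the sum of the gene with all copies, in CPM on a log axis, with 3 CSE libraries left of 3 control libraries and the group mean as a bar. Every row is higher in the CSE libraries, and ps17 lies above the gene row in both groups.

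Chordc1, which encodes the HSP90-binding CHORD domain protein also called morgana, had a change close in size to that of Hsp90ab1. Its level was 267, 291 and 298 CPM with CSE, against 76.3, 70.2 and 62.4 CPM in the control, which is a rise of 2.04 ± 0.07 on the log2 scale (edgeR adjusted p = 2.2e-14). Stip1, the bridge that hands clients from HSP70 to HSP90, had 482, 440.1 and 462 CPM with CSE and 166, 148 and 163 CPM in the control. All CSE libraries were again above all control libraries (1.53 ± 0.05, edgeR adjusted p = 5.5e-14). Cacybp, which encodes calcyclin-binding protein, a partner of the ubiquitin ligase SIAH1, had 265, 264 and 300.4 CPM with CSE and 124, 110.4 and 100.3 CPM in the control (1.31 ± 0.07). Ahsa1 encodes the protein that speeds the HSP90 ATPase. It had 232, 222 and 229 CPM with CSE and 87.6, 90.7 and 97.6 CPM in the control (1.31 ± 0.05). Ptges3, the p23 gene, whose product holds HSP90 in the ATP-bound closed state, had 435, 442 and 454 CPM with CSE and 221, 232 and 208 CPM in the control (1.01 ± 0.05). None of these genes had overlapping groups, and the edgeR adjusted p of Cacybp, 1.6e-11, was the highest among them.

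Of the immunophilin genes, Fkbp4 rose and Fkbp5 did not pass the test. Their products FKBP52 and FKBP51 compete for HSP90 in steroid receptor complexes, where FKBP52 favours and FKBP51 lowers receptor activity. Fkbp4 had 234, 218 and 232 CPM with CSE and 96.3, 98.8 and 101.5 CPM in the control, a 2.31-fold rise (1.21 ± 0.05, edgeR adjusted p = 5.2e-13). Fkbp5 had 43.7, 41.6 and 41.1 CPM with CSE and 42.2, 36.2 and 39.1 CPM in the control, so that the highest control library lay above the lowest CSE libraries. The difference, 0.11 ± 0.07 on the log2 scale, did not pass (edgeR adjusted p = 0.153), and it was −0.028 with upper quartiles and −0.079 with total counts alone. Per 1000 counts of Fkbp4 in the same library, Fkbp5 had 187, 191 and 177 counts with CSE, against 438, 366 and 385 in the control. This ratio was 2.14-fold lower with CSE and the groups did not overlap (log2 difference −1.10 ± 0.08 SE, exact permutation p = 0.1, the lowest that 6 libraries can give).

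Cdc37, which delivers kinases to HSP90, rose least among the genes called. It had 257, 233 and 235 CPM with CSE and 192, 179 and 212 CPM in the control, a 1.24-fold difference (0.32 ± 0.06, edgeR adjusted p = 1.4e-04). The groups did not overlap, but the call ended under total counts alone (0.13 ± 0.06, edgeR adjusted p = 0.0561). Over the 14 alternatives its adjusted p from edgeR, DESeq2 or limma-voom lay between 1.0e-08 and that value.

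**Figure D3:**
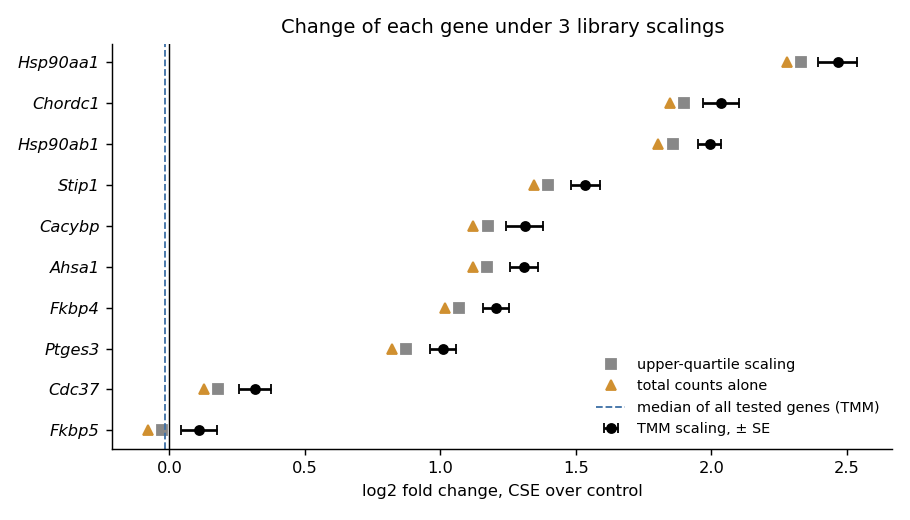
Log2 fold change of CSE over control for each gene under TMM scaling (black, ± SE from edgeR), upper-quartile scaling (grey squares) and total counts alone (orange triangles), with the median of all tested genes under TMM as a dashed line. The genes run from 2.47 for Hsp90aa1 to 0.11 for Fkbp5 under TMM, and Fkbp5 lies below 0 under the other scalings.

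Relative to HSP90 counts in the same library, 7 of the 8 cochaperones were lower with CSE. Most HSP90 counts came from Hsp90ab1, and 96.1% of all tested genes had a lower log2 fold change than that gene. Most genes would thus be lower on this scale, and the 7 are not particular in this. The summed counts of all 8 per 1000 counts of Hsp90aa1 and Hsp90ab1 were 422, 436 and 430 with CSE, against 771, 755 and 776 in the control. That is a log2 difference of −0.84 ± 0.02 (SE, exact permutation p = 0.1, the lowest that 6 libraries can give), with no overlap. The ratios of single genes follow from the fold changes given above and are no separate result. Among single genes the deepest differences were in Fkbp5 (8.20 ± 0.316 with CSE and 30.5 ± 2.02 in the control per 1000 HSP90 counts, −1.89 ± 0.06 SE) and Cdc37 (47.0 ± 2.06 with CSE and 151 ± 14.2 in the control, −1.68 ± 0.09 SE). Ptges3 was 1.99-fold lower on this scale, Fkbp4 1.74-fold, Ahsa1 1.62-fold, Cacybp 1.61-fold and Stip1 1.38-fold. The exception was Chordc1, at 50.8, 58.9 and 56.9 counts per 1000 with CSE and 58.5, 54.9 and 49.2 in the control. Its groups overlapped and its log2 difference was 0.04 ± 0.10 (SE, exact permutation p = 0.6), with a range from −0.032 to 0.10 when each library was left out in turn. Over the 8 ratios, the adjusted exact p was 0.114 for each of the other 7 genes and 0.6 for Chordc1, so none could pass 0.05 in this design.

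**Figure D4:**
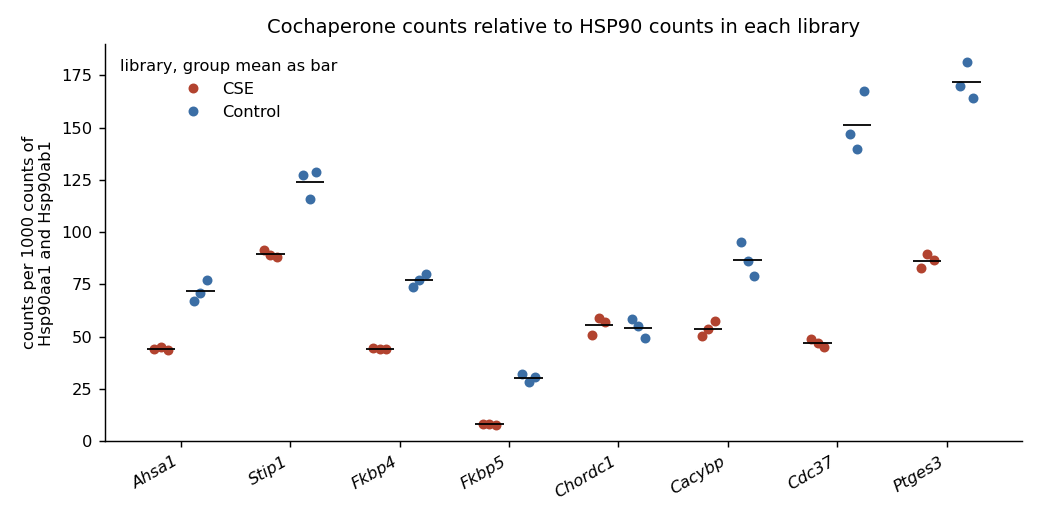
Counts of each cochaperone gene per 1000 counts of Hsp90aa1 and Hsp90ab1 in the same library, with 3 CSE libraries left of 3 control libraries and the group mean as a bar. The CSE points lie below the control points in every gene except Chordc1, where all points lie between 49.2 and 58.9 and the groups overlap.

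Promoter sequences are shown because 9 of the 10 genes rose and several carry the letters of a heat shock element near their start. RefSeq windows of the build GRCr8, from 250 bases before to 50 after each gene's start, were found for 9 of the 10 genes. Hsp90aa1, the gene with the highest rise, had no window and was not searched. The letters GAANNTTC or TTCNNGAA, each the same on both strands, were found in 5 of the 9 windows, beside 15.9% of 33465 windows of this length. A run of 3 units, GAANNTTCNNGAA or TTCNNGAANNTTC, each the reverse complement of the other and each overlapping the shorter motifs, was found in the Chordc1 window, beside 0.798% of all windows. The matches are printed with their flanks in lower case and the matched letters in capitals, 5′ to 3′ on the strand of the gene.
Chordc1: ccgGAACGTTCGGGAAGATTCCTGAAgca
Stip1: tcccggcagcttctagtaggTTCCAGAA
Cacybp: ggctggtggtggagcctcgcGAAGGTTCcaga
Fkbp4: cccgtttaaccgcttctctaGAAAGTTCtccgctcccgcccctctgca
Cdc37: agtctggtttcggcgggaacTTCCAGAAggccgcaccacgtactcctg
The Chordc1 stretch (chr8:23650828-23650856, plus strand) holds 4 matches of 2 units and 3 matches of 3 units, overlapping along 23 bases. The first begins 11 bases after the start. In Stip1 (chr1:213657655-213657682, minus strand) the match begins 8 bases before the start, and in Cacybp (chr13:74981240-74981271, minus strand) 12 bases before it. In Fkbp4 (chr4:163398028-163398075, minus strand) and Cdc37 (chr8:27967039-27967086, minus strand) the match lies farther out, beginning 137 and 136 bases before the start. The windows of Hsp90ab1, Ahsa1, Fkbp5 and Ptges3 held neither motif. Hsp90ab1, with a log2 fold change of 1.99, thus had no match and Cdc37, with 0.32, had a match.

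HSP90 paralogs of other compartments moved apart. Hsp90b1, the endoplasmic reticulum form GRP94, had 2346, 2294 and 2173 CPM with CSE and 1499.6, 1380.2 and 1409 CPM in the control (0.67 ± 0.05, edgeR adjusted p = 4.5e-10). Trap1, the mitochondrial form, had 38.8, 38.7 and 34.2 CPM with CSE and 62.9, 61.8 and 65.5 CPM in the control, a fall (−0.77 ± 0.06, edgeR adjusted p = 5.8e-09). Neither pair of groups overlapped, which also held for 75.8% of all tested genes, counting both directions.

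A wider list of 35 other HSP90 cochaperones and adaptors moved in both directions. Rises were called in 12 of 32 tested (37.5%), falls in 13 (40.6%), and 7 did not pass, beside 36.3% and 37.5% of all tested genes, and the median was −0.13. The counts under total counts alone and other settings ran from 8 to 12 higher and from 11 to 18 lower. The rises with the smallest p were Flcn (2.62 ± 0.09), Fnip2 (1.71 ± 0.06) and Fnip1 (2.05 ± 0.09), which encode folliculin and its partners that slow the HSP90 ATPase, and Ahsa2 (1.41 ± 0.08), the paralog of Ahsa1. Flcn had 97.6, 85.7 and 109 CPM with CSE and 15.4, 15.1 and 17.0 CPM in the control, a 6.16-fold rise. Falls included Telo2 (−1.32 ± 0.10) and Tti1 (−1.01 ± 0.09), whose products act with HSP90 in the assembly of kinases of the ATM and mTOR family. Cdc37l1, a relative of Cdc37, fell to 35.9 ± 3.41 CPM with CSE, against 49.6 ± 0.930 CPM in the control (−0.47 ± 0.07). The p23-like gene Ptges3l fell as well (−0.52 ± 0.08). The TPR cochaperone genes did not move as a block: Dnajc7 (0.44 ± 0.05) and the cyclophilin 40 gene Ppid (0.28 ± 0.07) rose, and Stub1 (−0.24 ± 0.07), which encodes the ubiquitin ligase CHIP, fell. The call of Ppid ended under upper-quartile scaling (edgeR adjusted p = 0.0693) and with total counts (edgeR adjusted p = 0.234). The phosphatase gene Ppp5c (−0.15 ± 0.06, edgeR adjusted p = 0.0395) lost its call without CSE replicate 2, CSE replicate 3, control replicate 2 or control replicate 3 (edgeR adjusted p from 0.0694 to 0.213), and under RLE scaling, DESeq2 and the replicate block. Sugt1, an adaptor related to Cacybp, had 57.5 ± 5.16 CPM with CSE and 58.6 ± 4.94 CPM in the control and did not pass (edgeR adjusted p = 0.745), but was called lower with total counts alone (−0.22, edgeR adjusted p = 0.0150). Every library listed the muscle cochaperone gene Itgb1bp2 at 0. It lies on chromosome X, and 594 of the 606 protein-coding X genes of the table were likewise at 0 throughout.

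The genes listed as HSP70 partners, those of HSP70 itself and of proteins that act with it, rose together. Of 15 tested, 14 rose (93.3%, beside 36.3% of all tested genes), none fell, and Bag2 (named after its value was seen) did not pass. With upper quartiles, and with total counts, 1 of the 15 was called lower. The median was 2.41, also with Hspa1a, which had 21 to 30 counts with CSE and none in the control, set at least 24.4-fold higher, its bound when the control libraries together are given 3 counts. St13, whose product binds HSP70 beside Stip1, had 223, 205 and 224 CPM with CSE and 89.1, 75.8 and 77.5 CPM in the control (1.43 ± 0.06, edgeR adjusted p = 1.0e-12), near the change of Stip1. The J-domain genes Dnaja1 (2.41 ± 0.04) and Dnajb1 (2.88 ± 0.07), the HSP110 gene Hsph1 (3.80 ± 0.07) and Bag3 (3.59 ± 0.07) were among those that rose. Hspa1b (5.97 ± 0.13) and Hspa8 (2.58 ± 0.07) have near-identical copies, and their levels are uncertain for that reason.

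Among regulators of HSP90 genes and proteins, 4 of 9 tested rose (44.4%, beside 36.3% of all tested genes) and 1, Ppp5c, fell (11.1%, beside 37.5%). The call of Ppp5c was lost in 7 of the 14 alternatives. Hsf1 had 46.1 ± 1.97 CPM with CSE and 36.6 ± 1.73 CPM in the control (0.33 ± 0.06, edgeR adjusted p = 1.4e-04). Hsf2, another heat shock factor gene, had 82.9, 83.4 and 91.2 CPM with CSE and 37.3, 32.0 and 28.4 CPM in the control (1.40 ± 0.08, edgeR adjusted p = 3.7e-11). The kinase CK2 phosphorylates CDC37. Its subunit genes Csnk2a2 (0.71 ± 0.06) and Csnk2b (0.33 ± 0.05) rose.

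Genes of HSP90 clients moved in both directions, those of kinases at shares close to those of all tested genes. Rises were called in 17 of 47 tested kinase clients (36.2%), falls in 20 (42.6%), and 10 did not pass. Their median was 0.00. Fyn (1.09 ± 0.05), Eif2ak3 (1.16 ± 0.06), which encodes the unfolded protein sensor PERK, and Ripk1 (0.96 ± 0.06) rose. The cell cycle kinase genes Cdk6 (−1.44 ± 0.06), Aurkb (−1.63 ± 0.07) and Cdk1 (−1.34 ± 0.06) and the growth factor receptor gene Pdgfrb (−0.87 ± 0.05) fell. Of 11 tested receptor and transcription factor clients, 5 rose (45.5%, beside 36.3% of all tested genes) and 2 fell (18.2%, beside 37.5%). Their median was 0.00, and 5 were called lower with upper quartiles or with total counts. The glucocorticoid receptor gene Nr3c1 had 120.4, 129 and 141 CPM with CSE and 83.2, 81.7 and 77.4 CPM in the control (0.69 ± 0.06, edgeR adjusted p = 1.2e-08). Nr3c2, the mineralocorticoid receptor gene, fell to 3.46 ± 0.719 CPM with CSE, against 8.19 ± 0.154 CPM in the control (−1.24 ± 0.16). Rora (1.61 ± 0.11) and Hif1a (0.63 ± 0.05) rose and Stat5b (−0.85 ± 0.12) fell. Ahr, which senses smoke hydrocarbons in a complex with HSP90, had 72.3 ± 1.71 CPM with CSE and 72.5 ± 1.18 CPM in the control and did not pass (edgeR adjusted p = 0.943). It was called lower under upper-quartile scaling (−0.14, edgeR adjusted p = 0.0217) and with total counts (−0.19, edgeR adjusted p = 0.00303).

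Fkbp5 is widely used as a readout of the glucocorticoid receptor, so other glucocorticoid-induced genes are given beside it. With Fkbp5 included, 25 were listed. Tsc22d3 and Ptgds were at 0 in all 6 libraries, and Zbtb16, Cdkn1c and Lcn2 fell below the filter on low counts. Of the 20 tested, rises were called in 8 (40%), falls in 6 (30%), and 6 did not pass. These shares lie near the 36.3% and 37.5% of all tested genes. The list's median was 0.24. Errfi1 (2.78 ± 0.06), Dusp1 (1.53 ± 0.05), Mt2A (4.05 ± 0.17) and Sgk1 (1.10 ± 0.06) rose. Crispld2 (−1.22 ± 0.06), Cebpd (−1.41 ± 0.12), the clock gene Per1 (−0.68 ± 0.10) and Gadd45b (−0.30 ± 0.06) fell. Several of these genes also answer to other signals, such as growth factors or metals.

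**Figure D5:**
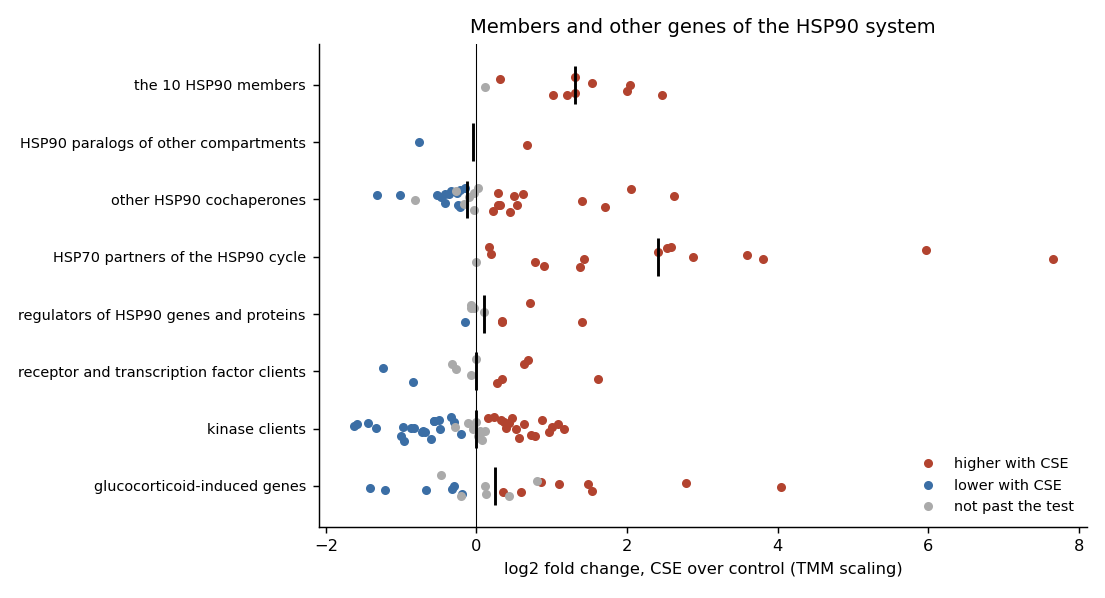
Log2 fold change of CSE over control under TMM scaling for the 10 genes and for the other lists of the HSP90 system, 1 point per tested gene, coloured by the edgeR call, with the list median as a bar. The 10 genes (median 1.31) and the HSP70 partners (median 2.41) lie to the right of 0, except Bag2 at −0.01, and the other lists hold genes on both sides. The point of Hspa1a, which had no control count, depends on the prior count of the fit.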

How the data were processed

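The deposited table holds raw read counts per gene symbol, as whole numbers with no normalization, in 6 columns assigned to samples by name. HISAT2 2.0.4 and Rnor_6.0 are named in the submitters' processing notes with no role given. No counting tool, annotation or strand setting was given in the sources used here. Overlapping and antisense genes therefore share reads that cannot be assigned. The RefSeq overlaps of the 10 genes are lncRNA or tRNA genes, of which the 1 with a row had at most 7 counts in a library.

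Genes were filtered with filterByExpr (13390 kept) and scaled with TMM factors, which were 0.932 to 0.944 with CSE and 1.06 to 1.07 in the control. CSE was compared with control by the quasi-likelihood test of edgeR 4.0.16 in R 4.3.3, with p-values adjusted across every tested gene (Benjamini-Hochberg) and called below 0.05. The SE is the log2 fold change divided by the square root of F. Ratios within a library were compared by exact 2-sided permutation tests (scipy 1.17.1). Any pair of libraries differed by more than sampling noise (chi-square per degree of freedom 3.24 to 5.74 within groups and 179.5 to 217 across groups). Alternatives were other scalings, no filter, DESeq2 1.42.0, limma-voom (limma 3.58.1), a replicate block and leaving out each library.

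The members, the 7 lists of other HSP90 system genes and the tests were chosen with earlier results of these data known. Genes named from a list are up to 4 with the smallest adjusted p in each direction among those called, plus 17 named whatever their values (such as Hsf1, Nr3c1 and Ppid). A few genes that this rule names are not reported here. Summing pseudogene copies was added after seeing the data. RefSeq tables of GRCr8, which is not the build of the counts, gave names, pseudogenes and promoter windows.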

Additional observations from a re-analysis of the deposited data

How the results depend on the processing

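The calls of Hsp90aa1, Hsp90ab1, Ahsa1, Stip1, Fkbp4, Chordc1, Cacybp and Ptges3 kept their direction and stayed past the threshold under all 14 alternatives each, and 9 genes were called higher under each except total counts alone, with 8. Under total counts alone Cdc37 was at 0.13 and no longer called, and Fkbp5 was at −0.079, or −0.028 under upper-quartile scaling. The cause was not tested. Fkbp5 did not pass under any alternative (edgeR, DESeq2 or limma-voom adjusted p from 0.052 to 0.719). With upper quartiles and with total counts, the lower calls were 1 and 1 among HSP70 partners, 3 and 3 among regulators, and 5 and 5 among receptor and transcription factor clients. Lower calls among regulators were 0 with RLE scaling, 0 with DESeq2, 0 with the replicate block, and 0 to 1 when each library was left out. Ahr turned to 0.016 with RLE scaling and 0.016 with DESeq2, and ranged from −0.027 to 0.015 when each library was left out. Sugt1 ranged from −0.095 to 0.036, and the Chordc1 ratio to HSP90 counts from −0.032 to 0.10. The ratio of Hsp90aa1 to Hsp90ab1 ranged from 0.39 to 0.55 and that of all cochaperones to HSP90 from −0.85 to −0.83 in the same way. Same-numbered libraries did not deviate together (r from −0.027 to 0.020), so no pairing by number was seen. With 3 libraries per group this cannot exclude that same-numbered libraries share a rat or culture. With the replicate block, Hsp90ab1 was at 1.99 and Fkbp5 at 0.11, and no call among the 10 genes changed. With pseudogene copies summed, an alternative added after seeing the data, the cochaperone ratio was −0.87. With 3 libraries per group, no exact permutation test of a ratio could fall below 0.1.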

Other observations

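Genes whose levels followed those of single members most closely over the 6 libraries were found by the Euclidean distance between centred log2 CPM profiles, among genes with a mean of at least 5 CPM. For Chordc1 the nearest was Fnip1, a gene of an HSP90 cochaperone (distance 0.159, log2 fold change 2.05 ± 0.09). For Hsp90aa1 the nearest were Creg1 (distance 0.132), Arrdc3 (0.135) and the HSP110 family gene Hspa4l (0.141, log2 fold change 2.52 ± 0.10). Hsp90ab1 lay nearest to Ctdp1 (0.058), Fbxo34 (0.089) and Eps8 (0.092). The nearest gene to Stip1 was Jmjd6 (0.088) and that to Fkbp4 was Ptpn23 (0.042). These distances mostly reflect the difference between the groups and describe 6 libraries only.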
